A study of Rattus norvegicus with 8 samples.

Results

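Sirtuins are enzymes that remove acetyl and longer acyl groups from lysine residues of proteins and consume NAD in doing so. Rats have 7 sirtuin genes, Sirt1 to Sirt7, and all 7 were measured here in the liver as the non-control spots that the scanner files name after a member. They were 7 of the 36181 genes or names on the array and held 8 of its 45598 probes, with 2 probes for Sirt7 and 1 for each other member. All 7 were well above background on 8 of 8 arrays, and so all were among the 21881 genes tested.

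Sirtuins differ by where they work. SIRT1, SIRT6 and SIRT7 are mainly nuclear, SIRT2 is mainly cytosolic, and SIRT3, SIRT4 and SIRT5 are mitochondrial. In liver the family is known for tuning gluconeogenesis, fatty acid oxidation, ketone body and urea synthesis to the supply of fuel. Because they depend on NAD and not on zinc, they lie outside the classical histone deacetylases that butyrate inhibits.

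The STL group was 4 male Wistar rats given butyrate-containing structured lipids (STL) by daily gavage, 1.65 g per kg each day, and the controls were 4 such rats given 3.0 g per kg of maltodextrin, a dose of equal energy. All rats of both groups ate commercial chow, entered the resistant hepatocyte model of chemical liver carcinogenesis 2 weeks after treatment began, and were killed 8 weeks after it began. No rat without the carcinogenesis model was analysed here, so the comparison is of STL against maltodextrin in livers that all carried the model. The labels name no substrain, allele or age beyond age-matched.

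Each of the 8 labelled rats has 1 array of Cy3-labelled total liver RNA, a 1-colour Agilent design, and all 8 arrays share 1 slide. STL arrays had a 75th percentile of processed signal of 304 to 489, and control arrays of 467 to 605. With so few arrays, their number bounds the precision reached here. Controls 1 and 2 had arrays about as far apart as repeated spots within an array, with a ratio of 1.04 between the 2 spreads, against 2.08 to 7.18 in the other 27 pairs of arrays. They were averaged and counted as 1 sample, which leaves 4 STL and 3 control samples. Of the hepatocyte markers 10 of 10 passed the filter, but so did all 7 cholangiocyte and 8 stellate markers, so passing does not test the liver label. Among the marker lists, the hepatocyte list had the highest summed level (relative to the 75th percentile). It was 3548 to 5106 in STL and 2524 to 3473 in controls. A sum adds the linear signals of different probes, so it follows the brightest ones and the length of the list. Sums were not read as measures of how much of a cell type was present. In whole liver, fewer cells of a type and less RNA per cell cannot be told apart.

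The probes are 60 bases long and were read from the scanner files, with positions in rn4, the build named in their headers. The complete probes of Sirt3 (chr1:201022668-201022727, minus strand) and Sirt4 (chr12:42398991-42399050, plus strand) are shown because they carry the values of 2 mitochondrial members, and that of Sirt7 (chr10:110011971-110012030, minus strand) because it is the dimmer of the Sirt7 pair. The other Sirt7 probe, which stands for the gene, begins 2244 bases away (chr10:110009727-110009786, minus strand).
Sirt3: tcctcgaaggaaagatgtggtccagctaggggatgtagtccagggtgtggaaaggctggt
Sirt4: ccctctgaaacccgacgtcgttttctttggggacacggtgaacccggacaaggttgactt
Sirt7: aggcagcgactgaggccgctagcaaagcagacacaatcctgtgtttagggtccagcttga

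The Sirt6 probe (chr7:9560618-9560677, plus strand) ends in the letters AATAAA followed by a run of A, the usual polyadenylation signal, which is in capitals in its last 30 bases.
Sirt6: gcttccagaagctcccaatgcAATAAAaaa

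It was the only 1 of 8 sirtuin probes with these letters, which 9.04% of all 45598 non-control probes hold, counted on the printed strand. The remaining probes lie on chr20:25666679-25666738 (Sirt1, minus strand), chr1:83896060-83896119 (Sirt2, plus strand) and chr17:27135611-27135670 (Sirt5, minus strand). Probes differ in how well they bind, so levels were compared between groups for each probe and not between members.

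No sirtuin transcript differed between STL and control livers by the test across all genes. The 7 log2 differences, STL minus control, lay between -0.25 for Sirt6 and 0.25 for Sirt2, with 5 above and 2 below 0. Their 95% intervals together ran from -0.51 to 0.57, or from 0.701-fold to 1.484-fold. Of all genes tested, 53.4% had a difference no larger in size than that of Sirt2, 58% had one above 0, and 4.04% differed by at least 1. By limma with Benjamini-Hochberg adjustment, 0 of 7 were called and the adjusted p lay between 0.290 and 0.878. The unadjusted p was under 0.05 for 0 of 7 as well. Of all genes tested, 0.00457% were called, which was 1 gene (Cish, a cytokine signalling inhibitor, with a difference of 2.19), and 18.9% had an unadjusted p under 0.05, 11.5% higher and 7.38% lower in STL. The median difference of the sirtuins was 0.12, beside 0.064 for all genes tested. For the size of the difference without its sign, the medians were 0.19 and 0.23.

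**Figure D1:**
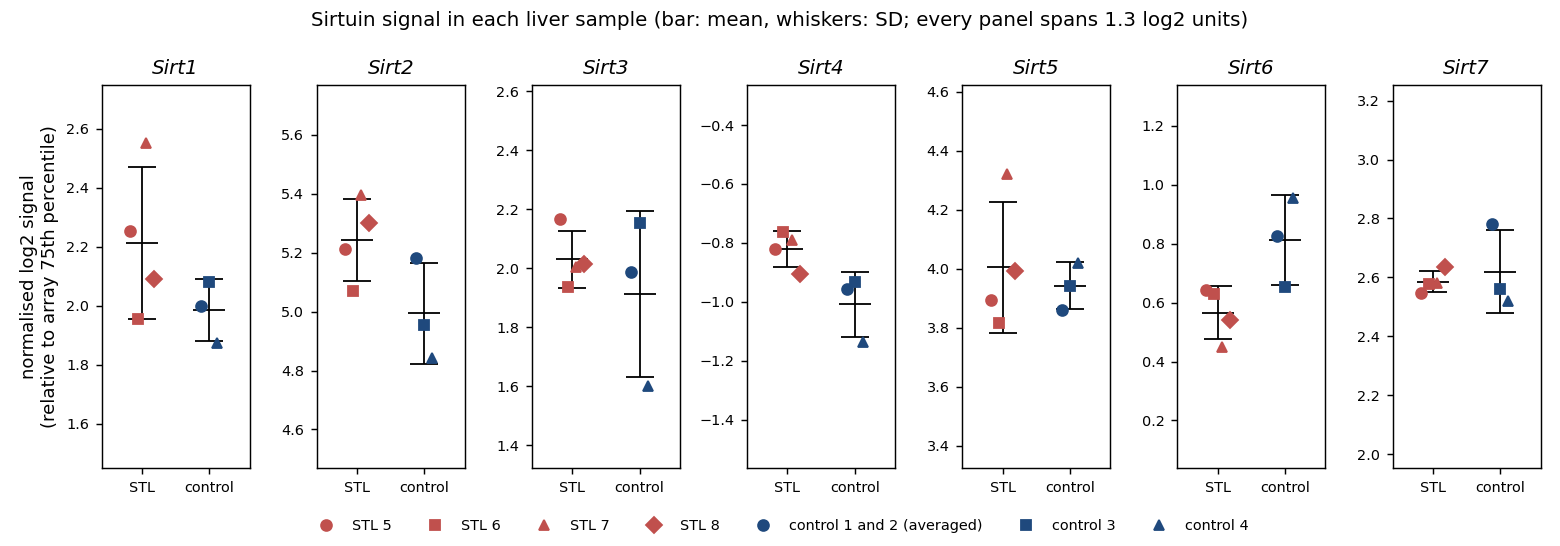
Normalised log2 signal (log2 processed signal minus that of the array's 75th percentile) of each sirtuin gene in the 4 STL samples on the left and the 3 control samples on the right of every panel. Bars mark means and whiskers the SD, and only the Sirt4 and Sirt6 groups do not overlap with controls 1 and 2 averaged. For Sirt4 the array of control 2 alone, at -0.903, lies above STL 8.

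Among the nuclear members, Sirt6 had the difference furthest below 0. SIRT6 deacetylates histones at chromatin and restrains the transcription of glycolytic genes. Its normalised log2 signal was 0.64 in STL 5, 0.63 in STL 6, 0.45 in STL 7 and 0.54 in STL 8, against 0.83 in the averaged control 1 and 2, 0.65 in control 3 and 0.96 in control 4. Every STL liver was below every control, although STL 5, at the top of its group, was only just under control 3. The difference of -0.25 (SE 0.12, 95% interval -0.51 to 0.019) corresponds to 0.843-fold and was not called (limma adjusted p = 0.290, n = 4 and 3). Within slide columns, each of which holds 1 STL and 1 control array, it was between -0.42 and -0.18, where a value below 0 follows from the lack of overlap. With controls 1 and 2 averaged, groups that do not overlap were seen for 2 of 7 sirtuins and for 16.8% of all genes tested, and 5.62% of all genes were lower without overlap, as Sirt6 was.

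Sirt1 codes for the nuclear deacetylase that acts on histones and on transcription factors of fasting metabolism such as FOXO1 and PGC-1alpha. Its normalised log2 signal was 2.25, 1.95, 2.55 and 2.09 in STL 5 to STL 8, against 2.0 in the averaged control 1 and 2, 2.08 in control 3 and 1.87 in control 4. The groups overlapped, since STL 6 lay among the controls while the other 3 STL livers lay above all of them. The difference was 0.23 (SE 0.15, 95% interval -0.12 to 0.57; limma adjusted p = 0.420). STL 7 was the highest liver, and without it the difference was 0.11. STL 7 was also the array with the lowest 75th percentile of signal, 304, and the part of that in its Sirt1 value was not tested. Before scaling, its Sirt1 spot had a processed signal of 1782, the lowest of the 8 arrays, which ranged up to 2222. STL 7 had the lowest signal before scaling at all 8 sirtuin probes, so this was not particular to Sirt1.

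Sirt7 codes for a nucleolar enzyme tied to ribosomal RNA transcription. Its brighter probe gave 2.55, 2.58, 2.58 and 2.64 in STL 5 to STL 8, against 2.78 in the averaged control 1 and 2, 2.56 in control 3 and 2.52 in control 4. The STL livers were close together and lay inside the range of the controls. The difference was -0.034 (SE 0.10, 95% interval -0.27 to 0.20; limma adjusted p = 0.878). Without the averaged control 1 and 2 it was 0.047. The dimmer Sirt7 probe, whose sequence is shown above, gave -0.50, -0.24, -0.65 and -0.36 in the STL livers, against -0.13, -0.39 and -0.41 in the averaged control and controls 3 and 4. Here too the groups overlapped, and the difference was -0.13 (SE 0.14; limma adjusted p = 0.649 over 26979 probes).

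Sirt2 codes for the cytosolic tubulin deacetylase, which also acts on the gluconeogenic enzyme PEPCK. Its normalised log2 signal was 5.21, 5.07, 5.40 and 5.30 in STL 5 to STL 8, against 5.18 in the averaged control 1 and 2, 4.96 in control 3 and 4.84 in control 4. STL 6 again lay below the averaged control, with 3 STL livers above all controls. STL 7 was the highest, although its Sirt2 signal before scaling, 12810, was the lowest of the 8 arrays, as for every sirtuin probe. The part of scaling in that value was not tested. The difference of 0.25 (SE 0.13, 95% interval -0.041 to 0.54) corresponds to 1.19-fold and was not called (limma adjusted p = 0.313). Quantile normalization brought it to 0.10, and the lowest adjusted p over its 18 alternatives was 0.109.

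The 3 mitochondrial members had differences above 0, none of them called. SIRT4 is a mitochondrial enzyme that dampens glutamate dehydrogenase by ADP-ribosylation and removes lipoyl and related groups. Sirt4 was -0.82, -0.76, -0.79 and -0.90 in STL 5 to STL 8, against -0.95 in the averaged control 1 and 2, -0.93 in control 3 and -1.14 in control 4. Every STL liver was above the averaged control and controls 3 and 4, but the array of control 2 taken alone, at -0.903, was above STL 8, at -0.905, so the 8 arrays overlapped. The difference was 0.19 (SE 0.12, 95% interval -0.086 to 0.46), or 1.14-fold, with a limma adjusted p of 0.405, and 11.2% of all genes were higher in STL without overlap. Within slide columns, where controls 1 and 2 stand apart although they count as 1 sample, it was between 0.14 and 0.23.

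SIRT3 is the main protein deacetylase of the mitochondrial matrix. Sirt3 was 2.17, 1.94, 2.0 and 2.01 in STL 5 to STL 8, against 1.99 in the averaged control 1 and 2, 2.15 in control 3 and 1.6 in control 4. Control 4 stood below the other 6 samples, which lay close together and overlapped. The difference was 0.12 (SE 0.14, 95% interval -0.21 to 0.44; limma adjusted p = 0.664), and without control 4 it was -0.038. SIRT5 removes succinyl, malonyl and glutaryl groups and activates carbamoyl phosphate synthetase, the entry enzyme of the urea cycle. Sirt5 was 3.90, 3.82, 4.32 and 3.99 in STL 5 to STL 8, against 3.86 in the averaged control 1 and 2, 3.94 in control 3 and 4.02 in control 4. STL 7 stood above the other 6 samples, among which the groups overlapped. Before scaling, its Sirt5 spot had a processed signal of 6076, the lowest of the 8 arrays, which ranged up to 9820. The part of scaling in its Sirt5 value was not tested. The difference was 0.064 (SE 0.14, 95% interval -0.25 to 0.37; limma adjusted p = 0.819), and without STL 7 it was -0.041.

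**Figure D2:**
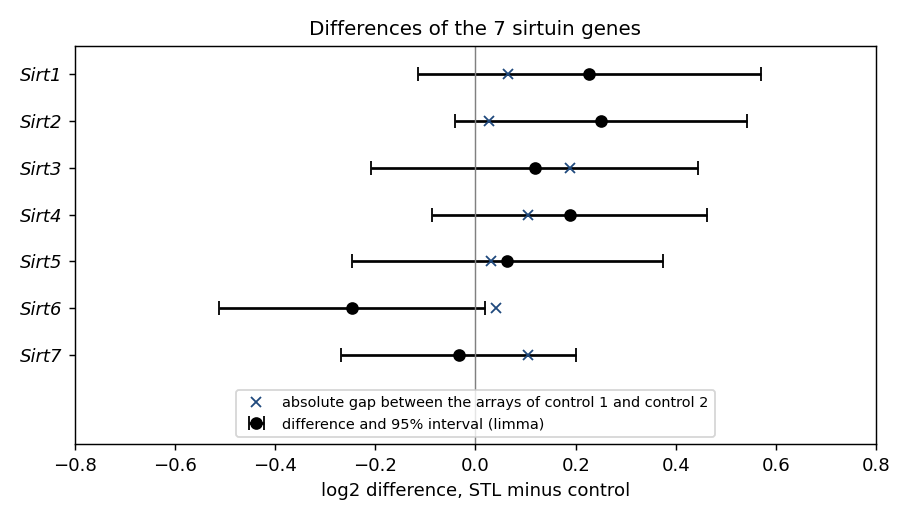
Log2 difference, STL minus control, of the 7 sirtuin genes with 95% intervals from limma (black). Crosses give the absolute log2 gap between the near-identical arrays of control 1 and control 2. All 7 intervals include 0, and the gap between those 2 arrays runs from 0.027 for Sirt2 to 0.19 for Sirt3.

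The arrays of control 1 and control 2 were about as far apart as repeated spots, so their gap was not read as the spread between livers. On the log2 scale they were apart by 0.19 for Sirt3, 0.11 for Sirt7 and 0.10 for Sirt4. The gap was 0.064 or less for Sirt1, Sirt2, Sirt5 and Sirt6. The SD within groups was between 0.085 for Sirt4 and 0.21 for Sirt1, against a median of 0.24 over all genes tested. The share of genes with a smaller SD was 3.23% for Sirt4, 4.62% for Sirt7, 10.2% for Sirt6, 21.8% for Sirt2, 31.0% for Sirt5, 36.2% for Sirt3 and 41.1% for Sirt1.

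Members were compared in pairs across the 7 samples, 21 pairs in all, of which 13 had a Pearson r above 0 and 8 below. Sirt4 and Sirt6 ran most strongly in opposite directions, with r = -0.82 (two-sided exact permutation p = 0.026, adjusted p = 0.269). Their rho was -0.82 (exact permutation p = 0.034, adjusted p = 0.239). Without the 2 samples farthest from the Sirt4 median r was -0.72, and after removing the group means it was -0.55. Sirt1 and Sirt2 had r = 0.77 (exact permutation p = 0.037, adjusted p = 0.269) and rho = 0.86 (exact permutation p = 0.024, adjusted p = 0.239), with r = 0.65 after removing the group means and r = 0.32 without the 2 samples farthest from the Sirt1 median. None of the 21 pairs passed after adjustment, with 0 under 0.05, and 3 had an unadjusted exact p under 0.05.

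The genes whose pattern over the 7 samples was most like each sirtuin are given as a description only, since a search over 21881 genes with 7 samples finds close matches for any gene. By Pearson r they were Pcbd2 (0.993) and Lrrc10b (0.991) for Sirt1, and Tspan31 (0.998) and Cisd1 (0.996) for Sirt2. For the mitochondrial members they were Slc2a8 (0.984) and Samd3 (0.983) for Sirt3, Prss57 (0.981) and LOC103691847 (0.979) for Sirt4, and Virma (0.995) and Gnas (0.985) for Sirt5. For Sirt6 they were Srfbp1 (0.982) and AA964627 (0.978), and for Sirt7 Znhit2 (0.992) and Gnl3l (0.980).

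Genes that make NAD, the co-substrate of every sirtuin, were looked at next. Of 17 listed, 15 were tested, and 0 were called in either direction. By each gene's brightest probe, 4 had an unadjusted p under 0.05, all of them higher in STL. Of all genes, 11.5% were higher and 7.38% lower at that threshold. Of the 15 differences 12 were above 0, where 58% of all genes were, with a median of 0.15 beside 0.064 for all genes. Nampt, the rate-limiting enzyme of NAD salvage from nicotinamide, was 1.0, 1.4, 1.09 and 1.06 in STL 5 to STL 8, against 2.19 in the averaged control 1 and 2, 1.484 in control 3 and 0.73 in control 4. The controls spread more widely than the STL livers and enclosed them. The Nampt difference was -0.33 (SE 0.29; limma adjusted p = 0.546). Its other, dimmer probe had -0.68, with an unadjusted limma p of 0.026. Without the averaged control 1 and 2 the difference at the brightest probe was 0.028, so its sign rests on that sample. Naprt, which starts NAD synthesis from nicotinic acid, was 3.99 ± 0.20 (SD, n = 4) in STL and 3.51 ± 0.27 (SD, n = 3) in controls, groups that did not overlap, with a difference of 0.48 (limma adjusted p = 0.196). Kmo, an enzyme of the kynurenine route from tryptophan to NAD, differed by 0.61 (limma adjusted p = 0.195). Ido2, which opens that route beside the main liver enzyme, differed by -0.23, and by -0.81 at its other probe. That other probe had an unadjusted limma p of 0.0014, but neither Ido2 probe was called.

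Genes that use or turn over NAD went both ways. Of 19 listed, 17 were tested, 8 above and 9 below 0, with a median of -0.011 and 0 called. Of these 17, 5 had an unadjusted p under 0.05, 3 higher and 2 lower in STL, beside 11.5% and 7.38% of all genes. Parp1, the poly(ADP-ribose) polymerase of DNA damage, was 3.63 ± 0.17 (SD, n = 4) in STL and 3.91 ± 0.23 (SD, n = 3) in controls (difference -0.28, limma adjusted p = 0.314). Cd38, an NAD-degrading ectoenzyme, differed by -0.066 (0.032 without STL 6 and 0.098 without control 3), and Nnmt, which methylates nicotinamide and so removes it from salvage, by 0.46, with 1.56 and 0.89 at its other probes. None of these passed the test. Slc25a51, whose human product carries NAD into mitochondria, was 3.06 ± 0.12 (SD, n = 4) in STL and 2.67 ± 0.15 (SD, n = 3) in controls, a difference of 0.39 (limma adjusted p = 0.181). Its 4 other probes had differences between 0.093 and 0.28. Sarm1, an NAD hydrolase known from axon degeneration, was at 1.19 and Bst1, a relative of Cd38, at -0.96 (limma adjusted p = 0.179 and 0.188). Both were dim, with mean log2 signals in STL and controls of -2.81 and -4.00 for Sarm1 and -3.39 and -2.43 for Bst1. Without STL 5 the Sarm1 difference was 0.87. Aox1, an aldehyde oxidase that also oxidises nicotinamide metabolites, was at -0.53.

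**Figure D3:**
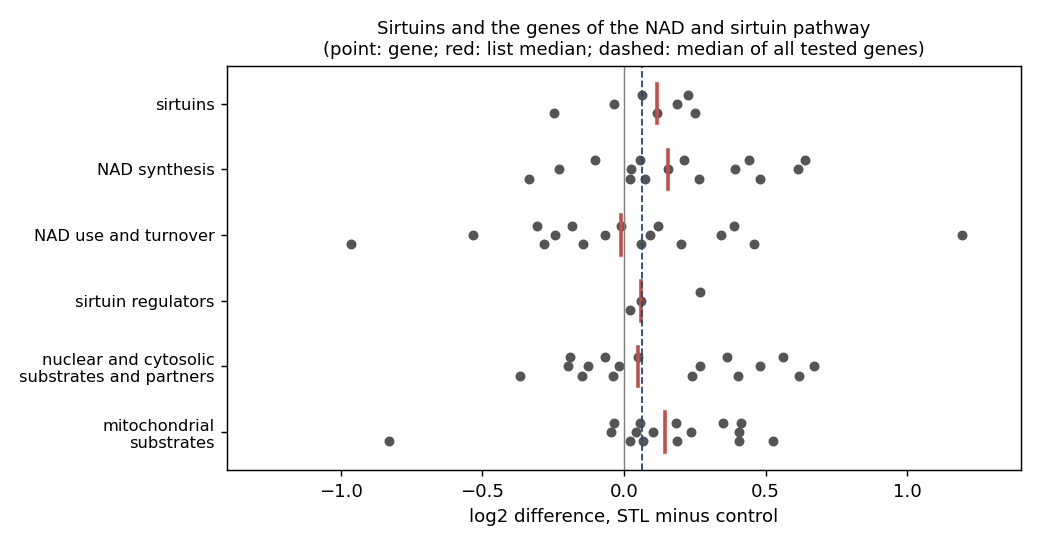
Log2 difference, STL minus control, of every tested gene of the sirtuin list and of 5 lists of NAD and sirtuin pathway genes. Red marks are list medians and the dashed line is the median of all tested genes, 0.064. The 7 sirtuins sit within 0.25 of 0, and no gene of the 6 lists was called by limma.

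Of the substrates of the mitochondrial sirtuins, all 16 listed were tested and 0 called. The differences of 13 were above and of 3 below 0, where 58% of all genes were above 0, and their median was 0.14, beside 0.064 for all genes. An unadjusted p under 0.05 was found for 4 that were higher and 1 that was lower in STL, beside 11.5% and 7.38% of all genes. Acadvl, the very long chain acyl-CoA dehydrogenase of fatty acid oxidation, was 5.32 ± 0.20 (SD, n = 4) in STL and 4.79 ± 0.28 (SD, n = 3) in controls, a difference of 0.53. Mccc1, a subunit of the leucine-degrading carboxylase that SIRT4 acts on, was 4.84 ± 0.15 in STL and 4.43 ± 0.18 in controls, a difference of 0.41 (limma adjusted p = 0.185 for both). In the other direction Acss1, the mitochondrial acetyl-CoA synthetase that SIRT3 activates, was -0.89, -0.70, -1.38 and -1.10 in STL 5 to STL 8, against -0.50, -0.52 and 0.45 in the averaged control and controls 3 and 4. All STL livers were below all controls, and control 4 stood far above the rest. The Acss1 difference was -0.83 (limma adjusted p = 0.190). Cps1, the substrate of SIRT5, was at -0.045 and Ndufa9, a complex I subunit, at -0.036 (0.053 without control 3).

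Nuclear and cytosolic substrates and partners were split, with 9 of 17 tested above and 8 below 0 (18 were listed), a median of 0.049 and 0 called. Here 4 had an unadjusted p under 0.05, all higher in STL, where 11.5% of all genes were higher and 7.38% lower at that threshold. Foxo1, a transcription factor of the fasting response, was at 0.48 and Crtc2, a coactivator of gluconeogenic genes, at 0.62 (limma adjusted p = 0.208 and 0.212). The NF-kB subunit gene Rela was at -0.19 and did not pass the test. Of 4 regulators of SIRT1, 3 were tested and 0 called. The transcriptional repressor gene Hic1 was at 0.27 and Ccar2, which codes for an inhibitor of SIRT1, at 0.061.

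Marker lists of cell types and lesions had 0 genes called, and their part in the sirtuin values was not tested. Of 8 dividing cell markers, 8 were below 0 in STL, where 58% of all genes were above 0. Their summed levels (relative to the 75th percentile) were 13.4 to 17.6 in STL and 17.8 to 24.8 in controls. This sum follows its brightest probes. Top2a and Ccna2, at mean log2 signals of -2.51 and -2.985 in STL, add little to it. The dividing cell scores (the mean centred log2 signal of a list) overlapped, with STL between -0.81 and -0.36 and the averaged control at -0.48. Controls 3 and 4 were at 1.296 and 1.291. Of the 8 markers, 1 was lower in STL without overlap, beside 5.62% of all genes. An unadjusted limma p under 0.05 was found for 6 of them, all lower in STL, beside 7.38% of all genes. All 7 preneoplastic lesion markers tested were below 0, with sums of 59.8 to 245 in STL and 150 to 439 in controls. Of the cholangiocyte markers 6 of 7 were below 0, with sums of 2.37 to 5.83 in STL and 5.06 to 11.46 in controls. Of the stellate cell markers 7 of 8 were below 0, with sums of 29.1 to 43.8 in STL and 46.6 to 95.4 in controls, but STL 6 had a stellate score of 0.035, above the averaged control at -0.012. Krt19, a keratin of bile ducts, was at -1.476, and Muc1, a mucin, had a difference of -1.44. The collagen genes Col1a2 and Col3a1 were at -0.90 and -0.75. Top2a, a topoisomerase of dividing cells, was at -2.02 and the cyclin gene Ccna2 at -1.98, and among lesion markers Anxa2 was at -1.75 and Aldh3a1 at -3.77. None of these was called. The median differences were -1.28 for dividing cells, -1.81 for lesions, -1.04 for cholangiocytes and -0.54 for stellate cells. Lower in STL without overlap were 2 of 7 lesion, 2 of 7 cholangiocyte and 2 of 8 stellate markers, beside 5.62% of all genes. With an unadjusted limma p under 0.05, 5 lesion, 3 cholangiocyte and 3 stellate markers were lower, beside 7.38% of all genes.

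In the other direction, 10 of 10 hepatocyte markers were above 0, where 58% of all genes were, with sums of 3548 to 5106 in STL and 2524 to 3473 in controls and a median of 0.40 (Cyp2e1 0.92, Apob 0.40). Of the 10, 3 were higher in STL without overlap, beside 11.2% of all genes. An unadjusted limma p under 0.05 was found for 3, all higher in STL, beside 11.5% of all genes. The hepatocyte score of the averaged control, 0.078, was above that of STL 6, 0.040. Macrophage markers had 6 of 8 below 0 (sums of 107 to 151 in STL and 121 to 150 in controls), endothelial markers 4 of 6 above 0 (75.8 to 99.5 and 50.8 to 76.2) and lymphocyte markers 3 of 4 above 0 (2.52 to 2.93 and 2.25 to 2.76). Their medians were -0.13, 0.16 and 0.32. Among them the complement genes C1qc and C1qa were at -0.37 and -0.26, Kdr at 0.60, Vwf at 0.27 (-0.45 at its other probe) and Nkg7 at 0.52, none called. Of the lymphocyte markers, Cd3e, Cd2 and Ms4a1 did not pass the filter. Control 4 had the highest normalised Sirt6 signal and the lowest for Sirt1, Sirt2, Sirt3, Sirt4 and the brighter Sirt7 probe. It had the highest lesion score (2.07), cholangiocyte score (1.42) and stellate score (0.74) and the lowest hepatocyte score (-0.60). Its array also had the highest 75th percentile of signal, 605, and the part of scaling in its sirtuin values was not tested. Before scaling, its signal was 2218 for Sirt1 (8 arrays: 1782 to 2222) and 275 for Sirt4 (176 to 288). For Sirt2 it was 17360 (12810 to 19890) and for Sirt3 1834 (1221 to 2332). STL 6, which lay among the controls for Sirt1 and Sirt2, had a lesion score of 0.80, above the averaged control at 0.53, while the other STL livers were between -1.69 and -1.16. Without control 4 the difference was -0.17 for Sirt6, 0.17 for Sirt1, 0.17 for Sirt2 and 0.12 for Sirt4.

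**Figure D4:**
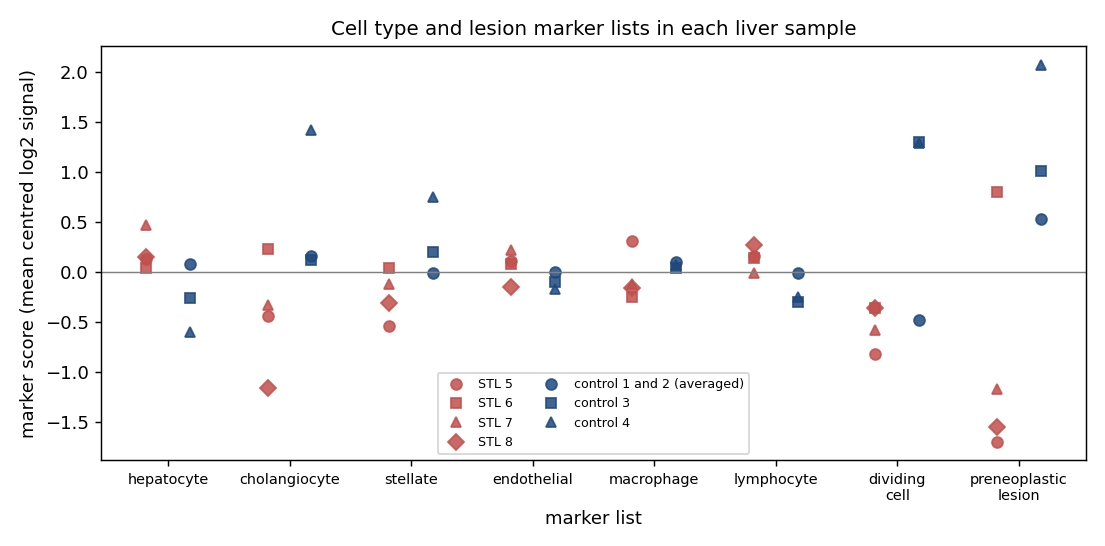
Score of each marker list (mean of the members' log2 signals, centred on the gene's mean over the 7 samples) in the 4 STL samples (left, red) and the 3 control samples (right, blue). Control 4 has the highest lesion score, 2.07, and STL 6 is the STL sample nearest to the controls, at 0.80.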

How the data were processed

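The deposited scanner files hold spot intensity from Agilent Feature Extraction, version 11.5.1.1 per the file headers and 10.7 per the submitters' processing notes. Spatial and multiplicative detrending were switched on within each array, with surrogates for the dimmest spots, per the file headers. The authors' series table holds linear intensity. Its columns matched a different array of their own group in 6 of 8 cases and an array of the opposite group in 0, leaving individual rats within a group unsettled. Scanner file labels are used here.

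Of 58717 non-control spots per array, those flagged as outliers were left out, and spots of a probe were averaged. Values are log2 processed signal minus the array's 75th percentile. A gene stood by its brightest probe and was tested when at least 4 of 8 arrays were well above background (at least 0.5 of a probe's spots). Names came from RefSeq (GRCr8) by accession (21109 probes), symbol (6684) or synonym (424). The other 17381 kept the name in the files. The comparison used limma 3.58.1 under R 4.3.3, with a mean-variance trend in eBayes, two-sided p-values, Benjamini-Hochberg adjustment over all genes and a threshold of 0.05. It was tested on simulated data. Plots used Python 3.11.15.

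Members and lists were chosen with earlier results of these data known. Named genes were all sirtuins, Nampt, Parp1, Cd38 and Nnmt, the 2 higher and 2 lower genes of each pathway list with the smallest p, 2 of each marker list, and the 2 genes most like each sirtuin. Of these, 2 genes are not reported here. Alternatives covered scaling, background, filter, probe choice, array weights, slide column, the series table and leaving out each sample. Whether control 1 and control 2 came from 1 RNA or from 2 livers is not known here.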

Additional observations from a re-analysis of the deposited data

Results flagged for a closer look

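Among the 44 genes looked at in the 4 STL livers, the 7 sirtuins and the 37 other named genes, 2 had a sample far from the rest by Dixon's test, and chance flags about 1 in 20 such groups. Sarm1 was at -1.84 in STL 5, with the other STL livers between -3.21 and -3.02 and a Dixon ratio of 0.863. The macrophage gene C1qa was at 4.27 in STL 5, with the others between 3.80 and 3.87 and a ratio of 0.863. No sirtuin was among them.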

How the results depend on the processing

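No alternative called a sirtuin, with 0 of 7 in each of the 18. Some gave an unadjusted limma p under 0.05. For Sirt6 it was 0.031 with each of the 8 arrays as a sample and 0.049 with slide column as a block, also on 8 arrays. Both of these settings count the near-identical arrays of control 1 and control 2 as 2 samples. With them averaged, the Sirt6 unadjusted p was 0.027 with median scaling and 0.0395 without control 3. For Sirt2 it was 0.027 with array weights and 0.035 without the averaged control 1 and 2. Sirt1, Sirt2, Sirt4 and Sirt6 kept their sign in all 18, within 0.11 to 0.31, 0.10 to 0.34, 0.11 to 0.23 and -0.33 to -0.15. Sirt3 was -0.047 and Sirt7 0.0076 with array weights, and Sirt5 was -0.062 with quantile normalization. Leaving out 1 sample in turn gave -0.038 to 0.24 for Sirt3, -0.041 to 0.13 for Sirt5 and -0.084 to 0.047 for Sirt7. The cause of these changes was not tested. Over all genes the count called was 21 with each of the 8 arrays as a sample, 1538 with array weights, 78 with the series table, and 1 to 216 when 1 sample was left out (216 without the averaged control 1 and 2, 45 without STL 6). With array weights 2 of the NAD use genes, Slc25a51 and Sarm1, and 2 of the mitochondrial substrates, Acadvl and Mccc1, were called. The median of the NAD use list was 0.043 with 8 arrays and with slide column as a block, -0.056 with median scaling, -0.072 with quantile normalization, -0.066 with the mean of probes, -0.073 with array weights, 0.074 with the series table, and -0.037 to 0.074 when 1 sample was left out. The median of the regulators was 0.23 with normexp and 0.0084 to 0.22 when 1 sample was left out. That of the nuclear and cytosolic substrates was -0.026 with quantile normalization and -0.018 to 0.18 when 1 sample was left out. Testing each probe on its own was added after seeing the data.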
